A study of Mus musculus with 12 samples.

Results

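The genes described here are 33 that encode scaffold and signalling proteins of the postsynaptic density, taken by symbol from 41388 genes counted in mouse cortex. All 33 symbols were found, each in 1 row, and all 33 passed the filter on low counts, which left 17441 genes. The list holds 4 Dlg scaffolds, 3 Shank, 3 Homer and 4 Dlgap genes, 4 genes of calcium/calmodulin-dependent kinase II (CaMKII), 5 of calmodulin binding and phosphatase action, 3 of tyrosine phosphorylation, and 7 of actin, adhesion and small GTPase control.

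The libraries were made from poly(A) RNA of adult C57Bl/6 mice, 3 in each of 4 groups, and each library has its own animal number. KI are Grin1-exon5+/+ knock-in mice, in which exon 5 of Grin1 is constitutive, and KI_WT are wild types of that line. KO are Grin1-exon5-/- knockout mice, and KO_WT are wild types of that line. The labels name no promoter or Cre driver that would limit either change to a cell type, the tissue was cortex, and the sex of the animals was not given in the sources used here. The design compares each line with its own wild types, and the lines with each other. Total counts were 31790970 to 36514024 per library.

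The postsynaptic density is the protein layer under the membrane of excitatory synapses, and it holds glutamate receptors opposite the sites of release. NMDA receptors, whose common subunit is encoded by Grin1, bind the Dlg scaffolds through the ends of their GluN2 subunits. Dlgap proteins tie the Dlg layer to Shank, Shank binds Homer and the actin network, and calcium that enters through the receptors acts on calmodulin, CaMKII and calcineurin. Grin1 exon 5 is a cassette that adds a short segment to the outer part of the subunit and does not alter the scaffold-binding ends.

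Grin1 itself was counted over the whole gene, so its level does not check the genotype of exon 5. It was at 334, 294 and 305 CPM (counts scaled to a common library total by TMM) in KI, against 333, 299 and 327 CPM in KI_WT. It was at 269, 340 and 313 CPM in KO, against 363, 329 and 308 CPM in KO_WT. The libraries of each line overlapped, and the log2 fold changes were -0.04 in KI and -0.12 in KO.

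As a class the 33 genes were abundant. Their median level was 30.2 RPKM (reads scaled by gene length and library total, as deposited), beside 4.45 RPKM over all genes tested. Of the 33, 14 were among the top 10% of tested genes and 4 among the top 1%. These 4 were Nrgn (485 RPKM over 12 libraries), Camk2a (394), Ppp3ca (299) and Ppp3r1 (289). Nrgn encodes neurogranin, which holds calmodulin at low calcium, Camk2a the alpha subunit of CaMKII, and Ppp3ca and Ppp3r1 a catalytic and the regulatory subunit of calcineurin. Ppp1r9b (156 RPKM), which encodes spinophilin, a targeting subunit of protein phosphatase 1 in spines, Agap2 (135), an Arf GTPase-activating protein, and Dlg4 (110), the scaffold PSD-95, came next. At the other end were Homer3 (3.91 RPKM), Dlgap2 (7.12), Camk2d (7.51) and Homer2 (10.3).

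**Figure D1:**
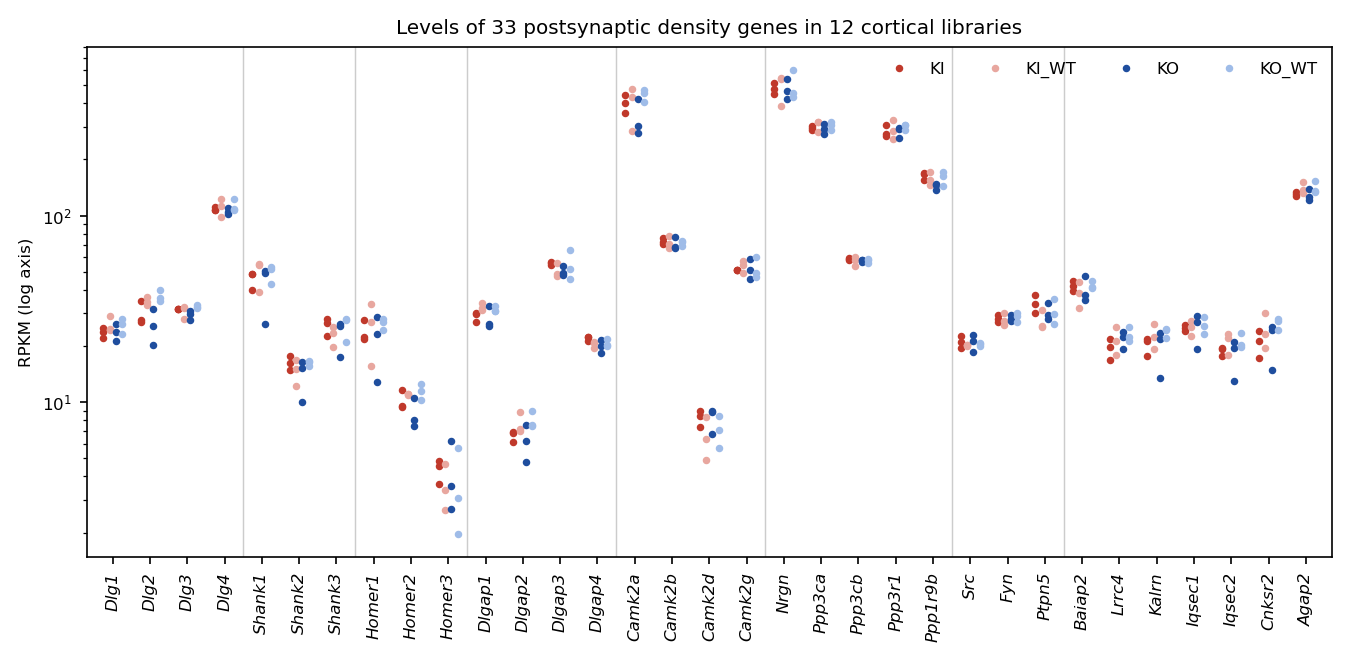
Level of each of the 33 genes in each of the 12 libraries, in RPKM as deposited, on a log axis, coloured by group and split by vertical lines into classes. Nrgn (485 RPKM over all libraries) stands highest and Homer3 (3.91 RPKM) lowest, and the 4 groups overlap for most genes.

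In the Dlg, CaMKII, Shank and Homer families 1 member took more than the others together of the summed RPKM in every group. Dlg4 made up 56.0% ± 1.92 of the 4 Dlg genes in KI and 54.8% ± 4.09 in KI_WT, and 57.2% ± 1.01 in KO and 54.2% ± 0.974 in KO_WT (SD, n = 3 each). Dlg2, the scaffold PSD-93, was the Dlg gene whose share was lower in all 3 KO libraries than in any KO_WT library. Its shares were 11.5%, 14.1% and 16.0% in KO, against 17.9%, 18.0% and 17.4% in KO_WT. In the knock-in line its shares overlapped, at 14.3%, 14.2% and 17.6% in KI and 17.7%, 16.0% and 17.8% in KI_WT. The share of Dlg4 was higher in every KO library than in any KO_WT library. It was 57.8%, 57.7% and 56.0% in KO, against 55.1%, 54.4% and 53.2% in KO_WT. Camk2a took 75.0% ± 2.23 of the CaMKII genes in KI and 74.4% ± 5.84 in KI_WT, and 71.5% ± 3.97 in KO and 77.2% ± 1.30 in KO_WT. Shank1 took 52.2% ± 0.933 of the Shank genes in KI and 56.7% ± 1.57 in KI_WT, and 52.6% ± 3.46 in KO and 54.0% ± 0.405 in KO_WT. Homer1 held 62.2% ± 1.11 of the Homer genes in KI and 62.2% ± 9.58 in KI_WT, and 61.2% ± 12.2 in KO and 63.8% ± 5.56 in KO_WT. In the knockout line shares also did not overlap for Camk2g (higher in KO) and Dlgap2 (lower in KO). In the knock-in line they did not for Shank1, Dlgap1 and Dlgap2 (lower in KI) and Shank2, Shank3 and Dlgap3 (higher in KI). Shares within a family depend on each other, and no rate over all genes was computed for them. These shares were not tested.

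Most of the genes were also long, which the choice by symbol did not use. Their median gene length in the deposited RPKM values was 6149 bases, beside 3452 bases over all genes tested, and 30 of 33 were longer than that median. In the GENCODE annotation of GRCm38 their median span was 80.969 kb and 15 spanned more than 100 kb. Spans were not computed over all genes, so these values have no background beside them. Dlg2 (ENSMUSG00000052572), on the plus strand of chromosome 7 from 90476672 to 92449247, spanned 1972.576 kb. Dlg3, Iqsec2 and Cnksr2 lie on the X chromosome. Exons of Homer3 overlap Ddx49 on the opposite strand by 874 bases (25.4% of its exon length), and Ddx49 had 8779 counts over all libraries, beside 5449 for Homer3. Exons of Ppp3r1 overlap Wdr92 on the same strand by 462 bases, and Wdr92 had 1.26% of the counts of Ppp3r1. Exons of Grin1, the targeted gene, overlap Grin1os on the opposite strand by 1307 bases, and Grin1os had 3.72% of the counts of Grin1. The strand setting of the counting was not given, so the values of Homer3 in particular are uncertain.

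Promoter windows, from 250 bases before to 50 after a RefSeq transcription start (RefSeq, GRCm38.p6), were on hand for 27 of the 33 genes, 42 windows in all. A GC box (GGGCGG on either strand) was in 54.8% of these windows and in 35.7% of all 32851 windows. The first letters of a cAMP response element (TGACG, either strand) were in 19.0% and 20.8%, the full element (TGACGTCA) in 0% and 1.79%, an E-box (CACGTG) in 7.14% and 7.15%, and TATAAA on either strand in 9.52% and 13.6%. The median GC content was 60.2% in the windows of these genes and 52.7% in all. TGACG is contained in TGACGTCA, and no other motif searched contains another. Windows of 4 genes are shown, those of Dlg2 and Homer2, which had the smallest p-values between KO and KO_WT, of Homer1, which varied most after Homer3, and of Nrgn, the most abundant. Capitals mark GGGCGG in Homer2 and Nrgn, and TGACG in Homer1, on either strand.
Dlg2, chr7:91090536-91090835, plus strand: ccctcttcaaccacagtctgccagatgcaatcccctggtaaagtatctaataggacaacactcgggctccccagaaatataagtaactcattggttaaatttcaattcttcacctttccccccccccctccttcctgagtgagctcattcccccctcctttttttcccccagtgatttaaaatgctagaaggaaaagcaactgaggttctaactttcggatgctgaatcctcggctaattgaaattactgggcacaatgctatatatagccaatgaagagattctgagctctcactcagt
Homer2, chr7:81706876-81707175, minus strand: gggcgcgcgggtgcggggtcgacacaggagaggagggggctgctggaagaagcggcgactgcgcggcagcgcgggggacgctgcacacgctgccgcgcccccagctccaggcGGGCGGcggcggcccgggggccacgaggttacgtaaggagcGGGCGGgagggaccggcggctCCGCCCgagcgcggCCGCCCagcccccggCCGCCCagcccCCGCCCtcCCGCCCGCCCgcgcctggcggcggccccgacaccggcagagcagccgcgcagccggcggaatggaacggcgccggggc
Homer1, chr13:93303507-93303806, plus strand: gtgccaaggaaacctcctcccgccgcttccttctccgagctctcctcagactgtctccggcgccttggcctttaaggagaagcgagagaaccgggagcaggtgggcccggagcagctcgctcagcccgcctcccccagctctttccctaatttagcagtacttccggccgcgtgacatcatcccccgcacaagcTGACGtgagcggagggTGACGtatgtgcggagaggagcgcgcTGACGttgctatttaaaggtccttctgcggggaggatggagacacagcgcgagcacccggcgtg
Nrgn, chr9:37552696-37552995, minus strand: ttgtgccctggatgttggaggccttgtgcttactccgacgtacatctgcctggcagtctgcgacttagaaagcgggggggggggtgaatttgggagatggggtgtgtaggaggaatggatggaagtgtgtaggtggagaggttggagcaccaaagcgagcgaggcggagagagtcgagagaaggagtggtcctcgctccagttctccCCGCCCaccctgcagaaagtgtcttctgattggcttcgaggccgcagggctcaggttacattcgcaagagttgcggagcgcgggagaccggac
The Dlg2 window is 1 of 3 for that gene, has a GC content of 44.7% and held none of the motifs searched. Its transcription start lies 614114 bases inside the annotated gene. The Homer2 window shown, 1 of 2, has a GC content of 82.3% with 49 CpG dinucleotides and held 8 GC boxes, some of which overlap. The other Homer2 window has a GC content of 52.3% with 3 CpG dinucleotides, and held TATAAA and no GC box. The Homer1 window shown, 1 of 2, held 3 copies of TGACG, and the other held none. The Nrgn window, the only 1 for that gene, held 1 GC box.

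The median coefficient of variation (CV) was 12.1%, beside 12.1% over all genes tested and 8.68% over the 9328 genes at least as abundant in CPM as the lowest of the 33. Ppp3cb, a catalytic subunit of calcineurin, was the steadiest (CV 2.84%), with 343, 332 and 355 CPM in KI, 360, 333 and 359 in KI_WT, 340.9, 338 and 344 in KO, and 348, 357 and 354 in KO_WT. Homer3 varied most (CV 32.9%), from 7.02 CPM in KO_WT 1 to 20.8 CPM in KO 2. Homer1, which links Shank to metabotropic glutamate receptors and stores of calcium, followed (CV 23.8%). It was at 233, 217 and 289 CPM in KI, 292, 169 and 347.5 in KI_WT, 293, 132 and 245 in KO, and 307, 261 and 286 in KO_WT. Its lowest libraries were KO 2 and KI_WT 2, of a mutant and a wild-type group. The short form of Homer1 that rises with neuronal activity is not separated from the long forms in these counts.

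The 33 genes differed together between single libraries of a group. KO 1 was the lowest of the 12 libraries for 17 of the 33, and KO_WT 1 was the highest for 17. The median deviation of the 33 from their 12-library means was -0.22 (log2) in KO 1 and -0.14 in KI 2, against 0.24 in KO_WT 1 and 0.13 in KI_WT 1. It was -0.08 in KO 2 and 0.05 in KO 3, so that 1 of the 3 KO libraries was above the 12-library mean. Of the 33, 25 were below the whole range of KO_WT in KO 1, 19 in KO 2 and 9 in KO 3, where 32.6%, 32.1% and 23.5% of all genes were. In the knock-in line 6 of 33 were below the range of KI_WT in KI 1, 17 in KI 2 and 3 in KI 3, where 23.9%, 26.4% and 16.8% of all genes were.

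**Figure D2:**
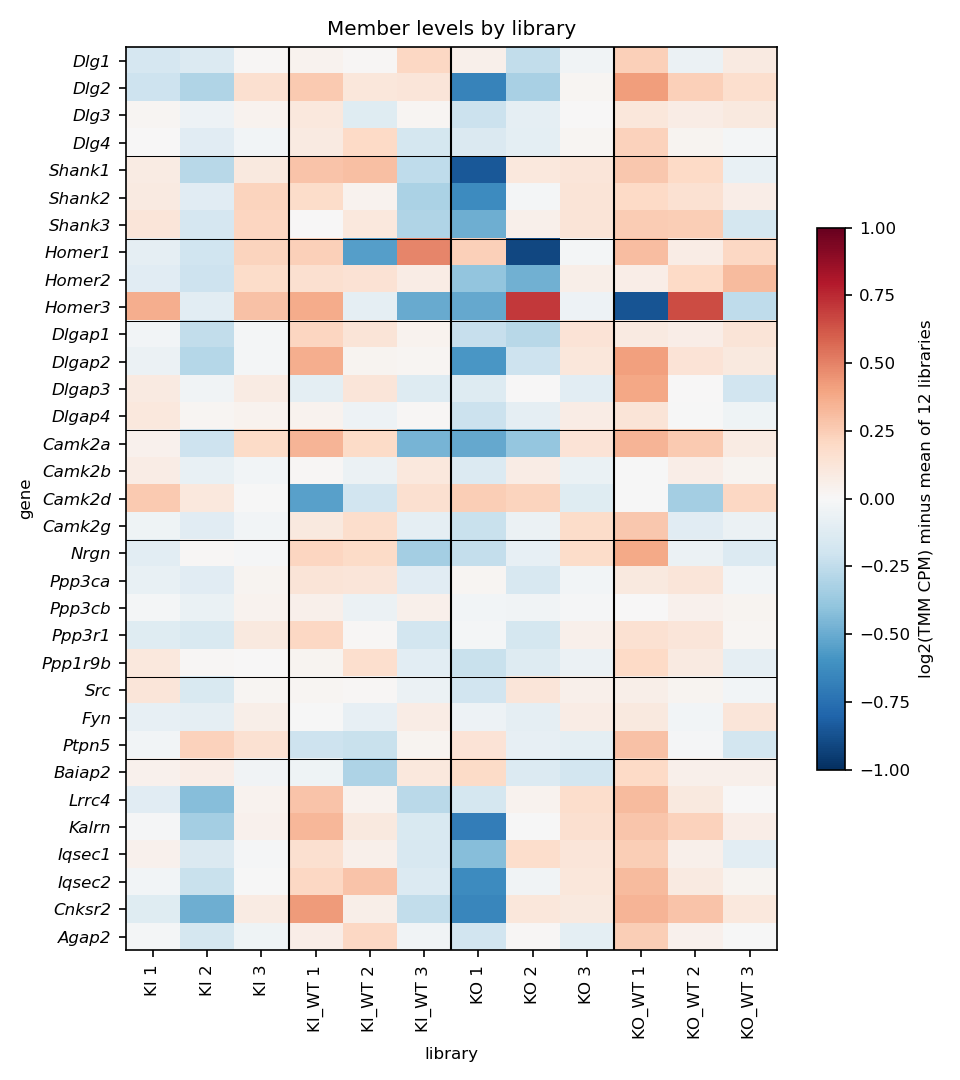
Deviation of each gene in each library from its mean over 12 libraries (log2 of TMM-scaled CPM), with libraries in columns, genes in rows and lines between classes. KO 1 is low across Dlg2, the Shank genes, Kalrn, Iqsec2 and Cnksr2, and KO_WT 1 is high for most genes.

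Markers of cells and brain regions moved with some of these libraries. All 6 markers of excitatory cortical neurons (among them Slc17a7, the vesicular glutamate transporter) were tested, and none of the markers used was at 0 in any library. Their mean deviation was -0.55 (log2) in KO 1, -0.30 in KI 2 and -0.42 in KI_WT 3, beside -0.09 to 0.36 in the others. Their summed level was 792 to 1001 CPM in KI, 830 to 1116 in KI_WT, 697 to 1390 in KO and 963 to 1044 in KO_WT. The 8 olfactory bulb markers had mean deviations of 1.54 in KO 1, 0.90 in KI 2, 2.602 in KI_WT 3 and 1.82 in KO_WT 3, and 0.01 or below in the others. Their sums were 131 to 182 CPM in KI, 100 to 487 in KI_WT, 93.01 to 227 in KO and 106 to 287 in KO_WT. The slope of a library's deviation on gene length was -0.07 (log2 per doubling of length) in KO 1, -0.05 in KI_WT 2 and -0.03 in KO 2. In bulk tissue, fewer cells of a type and less RNA per cell cannot be told apart.

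**Figure D3:**
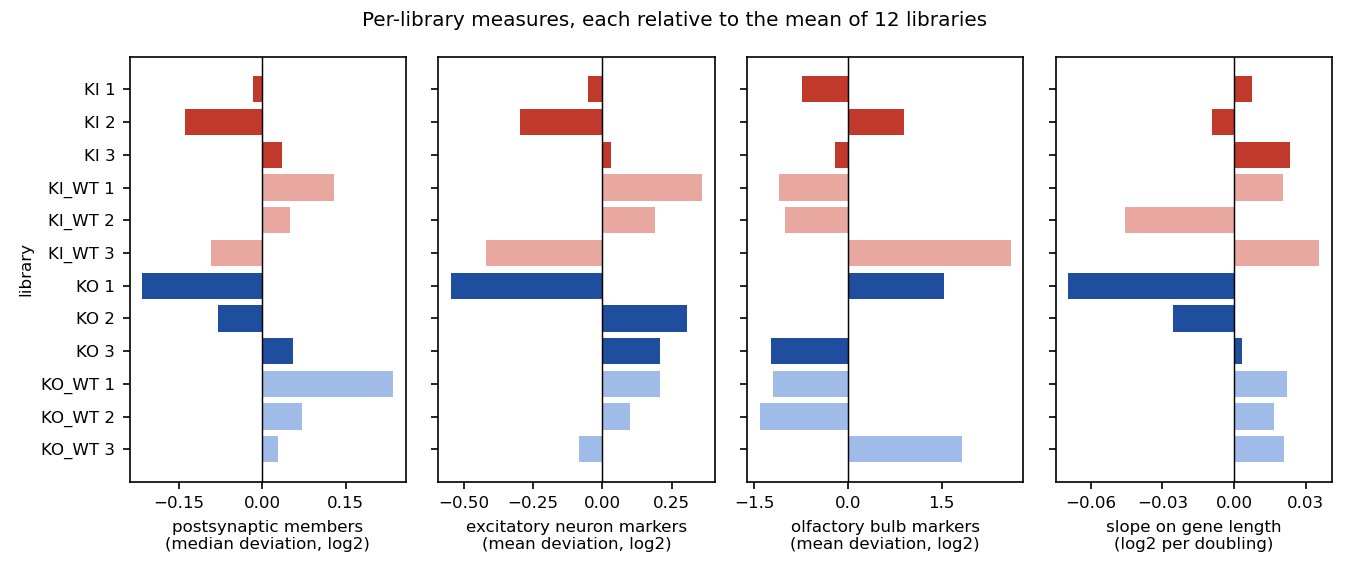
Median deviation of the 33 genes, mean deviation of 6 excitatory neuron markers and 8 olfactory bulb markers (log2), and slope of all genes on length, each relative to the 12-library mean, with 1 bar per library. KO 1 is lowest for the 33 genes (-0.22) and for the excitatory markers (-0.55).

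The question of KO against KO_WT is what the cortex expresses when exon 5 is absent. The means of 31 of the 33 genes were lower in KO, with a median log2 fold change of -0.16 and a range of -0.57 to 0.16, but 0 passed the test. The median over all genes was 0.01, and 48% of them were lower. In edgeR's quasi-likelihood test, with p-values adjusted by the Benjamini-Hochberg method over all genes, 0 of 33 had an adjusted p under 0.05 (0.00573% of all genes, 1 gene, did). The smallest adjusted p among the 33 was 0.678. At an unadjusted p under 0.05 there were 4 of 33, all lower (Dlg2, Homer2, Dlgap2 and Dlg3), beside 7.22% of all genes in either direction and 3.79% lower. DESeq2 gave 6 of 33 at this level (7.3% of all genes). Limma voom, run here and below with a quality weight for each library, gave 3 (5.46%). Both called 0 of the 33 after adjustment.

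Dlg2 had the smallest p. It was at 204, 260 and 329 CPM in KO, against 433, 382 and 365 CPM in KO_WT, a log2 fold change of -0.57 (SE 0.16, 95% interval -0.92 to -0.22). All KO libraries were below all KO_WT libraries, and KO 1 was the lowest of the 12. In the knock-in line Dlg2 was at 281, 264 and 362 CPM in KI and 389, 352 and 352 CPM in KI_WT, and these overlapped. Dlg3, the scaffold SAP102, was at 157, 170 and 182 CPM in KO and 197, 192 and 195 CPM in KO_WT (log2 fold change -0.19, SE 0.0771, 95% interval -0.36 to -0.03), with no overlap. Dlg4 was at 494, 510 and 553 CPM in KO, against 641, 555 and 538 CPM in KO_WT (log2 fold change -0.16), and Dlg1, the scaffold SAP97, at 230, 187 and 216 CPM, against 261, 213 and 236 CPM (-0.16). These overlapped.

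Homer2, a sister of Homer1, was at 86.8, 81.5 and 119 CPM in KO, against 120, 131 and 142 CPM in KO_WT, with no overlap by a narrow margin. Its log2 fold change was -0.45 (SE 0.137, 95% interval -0.75 to -0.15). Homer1 had -0.35 (SE 0.279), and Homer3 0.15 (SE 0.374). Dlgap2, which joins Dlg proteins to Shank, was at 28.8, 37.4 and 46.7 CPM in KO, against 57.3, 47.7 and 46.2 CPM in KO_WT (-0.42, SE 0.162, 95% interval -0.77 to -0.07). KO 3 lay inside the KO_WT range. Dlgap1, Dlgap3 and Dlgap4 had log2 fold changes of -0.21, -0.16 and -0.10.

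The 3 Shank genes had log2 fold changes of -0.28 (Shank1), -0.28 (Shank2) and -0.20 (Shank3), with SE of 0.175 to 0.232. Shank1 was at 211, 408 and 413 CPM in KO, against 457, 436 and 360 CPM in KO_WT. KO 1 was far below the rest, and the other KO libraries lay inside the KO_WT range. The same library was lowest for Shank2 (104 CPM) and Shank3 (152 CPM).

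Camk2a was at 2025, 2211 and 3188 CPM in KO, against 3655, 3461 and 3062 CPM in KO_WT (-0.46, SE 0.211), and KO 3 overlapped with KO_WT. Camk2b and Camk2g had -0.07 and -0.06, and Camk2d, the delta subunit, was 1 of the 2 genes with a higher mean (0.16, SE 0.177). Ppp1r9b was at 679, 726 and 761 CPM in KO, against 908, 843 and 744 CPM in KO_WT (-0.20, SE 0.098), and overlapped. Nrgn was at 594, 661 and 795 CPM in KO, against 911, 673 and 636 CPM in KO_WT (-0.12, SE 0.169). Ppp3cb did not overlap, yet its log2 fold change was -0.05 (SE 0.0648). Src and Fyn, kinases that phosphorylate GluN2 subunits, and Ptpn5, the phosphatase STEP that opposes them, had -0.02, -0.09 and -0.06.

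The 7 genes of actin, adhesion and small GTPase control all had lower means in KO, with a median of -0.19. The largest were Cnksr2 (-0.35, SE 0.215), a scaffold of Ras signalling, Kalrn (-0.33, SE 0.194), an exchange factor for Rac, and Iqsec2 (-0.30, SE 0.169), an exchange factor for Arf6. Agap2 was at 666, 765 and 711 CPM in KO, against 902, 781 and 759 CPM in KO_WT (-0.19, SE 0.0979). In all, the groups did not overlap for 4 of 33 (Dlg2, Dlg3, Homer2 and Ppp3cb), each lower in KO, beside 12.4% of all genes in either direction and 6.4% lower.

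**Figure D4:**
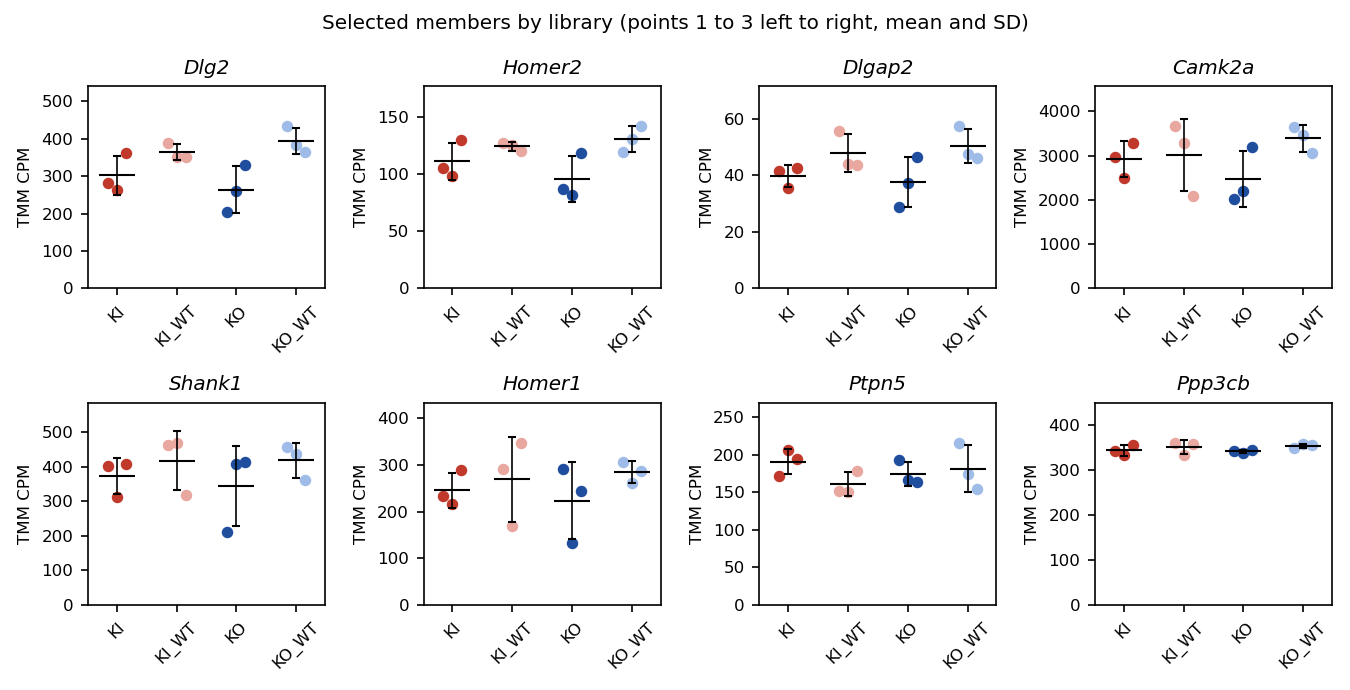
TMM-scaled CPM of 8 genes in each library (points, numbered 1 to 3 from left to right within a group), with the mean and SD of each group. Dlg2 and Homer2 show all KO points below the KO_WT points, Shank1 shows the 1 low KO library (211 CPM), and Ppp3cb varies little.

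The result rested in part on single libraries. Without KO_WT 1 the median of the 33 was -0.11 with 26 lower, and 2 had an unadjusted p under 0.05 (4.4% of all genes). Without KO 3, the KO library closest to KO_WT, 10 of the 33 had one, and so did 14.9% of all genes. The smallest adjusted p of the 33 was then 0.125, and edgeR called 6 genes in all and 0 of the 33. Without KO 1 the median was -0.12, 28 were lower and 3 had an unadjusted p under 0.05 (6.33% of all genes). Terms for thalamus, choroid plexus and olfactory bulb markers gave a median of -0.08 with 22 lower, and a term for the excitatory markers gave -0.16 with 31 lower. Removing each library's trend on gene length gave -0.12 with 29 lower. Of the 6 excitatory markers 4 had lower and 2 higher means in KO (median -0.10). Other marker lists moved in both directions. All 8 oligodendrocyte markers had lower means in KO (median -0.41, sums of 4880 to 10716 CPM in KO and 8983 to 11582 in KO_WT), and all 9 striatal markers did (median -0.38, sums of 522 to 1497 CPM in KO and 893 to 1268 in KO_WT). All 8 endothelial markers (median -0.20), 7 of 8 microglial markers (-0.10) and 6 of 8 astrocyte markers (-0.16) were lower as well. The endothelial sums were 311 to 405 CPM in KO and 409 to 455 in KO_WT, and the microglial sums 424 to 445 and 464 to 516. The astrocyte sums were 4240 to 6459 CPM in KO and 6544 to 7141 in KO_WT. For these lists the sums of KO and KO_WT did not overlap. All 9 thalamus markers (median 0.54, sums of 294 to 551 CPM in KO and 237 to 406 in KO_WT) and all 8 choroid plexus markers (1.202, sums of 569 to 1086 CPM in KO and 22.2 to 901 in KO_WT) were higher in KO. The part of the oligodendrocyte, striatal, endothelial, microglial and astrocyte markers in the result was not tested.

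KI against KI_WT asks what the cortex expresses when exon 5 is always included. Of the 33 genes, 23 had lower and 10 higher means in KI, the median log2 fold change was -0.08 and the range -0.27 to 0.29. Over all genes the median was -0.01 and 51.3% were lower. By edgeR 0 of 33 had an adjusted p under 0.05 (0% of all genes did), with a smallest adjusted p of 0.726, and 0 of 33 had an unadjusted p under 0.05, beside 6.96% of all genes. DESeq2 also gave 0 unadjusted (6.78% of all genes), limma voom with its library weights gave 7 (9.92%), and neither called one of the 33 after adjustment.

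Ptpn5 had the smallest p, with 172, 206 and 195 CPM in KI, against 152, 151 and 179 CPM in KI_WT (0.25, SE 0.125, 95% interval -0.02 to 0.52). KI 1 lay inside the KI_WT range. Dlgap1 was at 503, 433 and 505 CPM in KI, against 594, 559 and 524 CPM in KI_WT (-0.22, SE 0.111). Dlgap2 was at 41.4, 35.4 and 42.7 CPM in KI, against 55.7, 44.1 and 43.7 CPM in KI_WT (-0.26, SE 0.162). These were the 2 of 33 genes whose groups did not overlap, both lower in KI, beside 12.2% of all genes in either direction and 5.87% lower.

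Dlg1 was at 197, 201 and 224 CPM in KI, against 227, 224 and 256 CPM in KI_WT (-0.18, SE 0.102), and Dlg2 had -0.27 (SE 0.16). Camk2d was at 141, 126 and 118 CPM in KI, against 80.6, 103 and 132 CPM in KI_WT (0.29, SE 0.177). Camk2a was at 2975, 2499 and 3294 CPM in KI, against 3661, 3295 and 2097 CPM in KI_WT (-0.05, SE 0.211), where KI_WT 3 was the lowest of these 6. All 4 Dlg genes and 6 of 7 genes of actin, adhesion and small GTPase control had lower means in KI, with medians of -0.14 and -0.19. Of the Shank genes 2 of 3 had higher means, with log2 fold changes of 0.09 (Shank2) and 0.12 (Shank3), and Shank1 had -0.16. The difference between these classes was not tested.

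Several values depended on 1 library here as well. The median of the 33 was -0.03 without KI 2 and -0.03 without KI_WT 1, and -0.13 without KI_WT 3. With the terms for regional markers it was -0.02, with 20 lower, and Dlg1 had a log2 fold change of 0.02. With the excitatory marker term the median was -0.03. The log2 fold change of Camk2d was 0.13 without KI_WT 1 and 0.49 without KI_WT 3, and that of Dlgap2 was -0.14 without KI_WT 1. That of Dlg1 was -0.11 without KI_WT 3, and that of Dlg2 was -0.18 without KI 2 and -0.41 without KI 3. The 9 thalamus markers summed to 370 to 514 CPM in KI and 253 to 361 CPM in KI_WT, without overlap, and 1 of 9 was lower in KI. All 6 excitatory markers were lower in KI (median -0.14), and so were 7 of 8 olfactory bulb markers (-1.53). All 8 choroid plexus markers (0.39), 7 of 8 microglial markers (0.11) and 6 of 8 oligodendrocyte markers (0.13) were higher in KI. The part of the microglial and oligodendrocyte markers in the result was not tested.

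**Figure D5:**
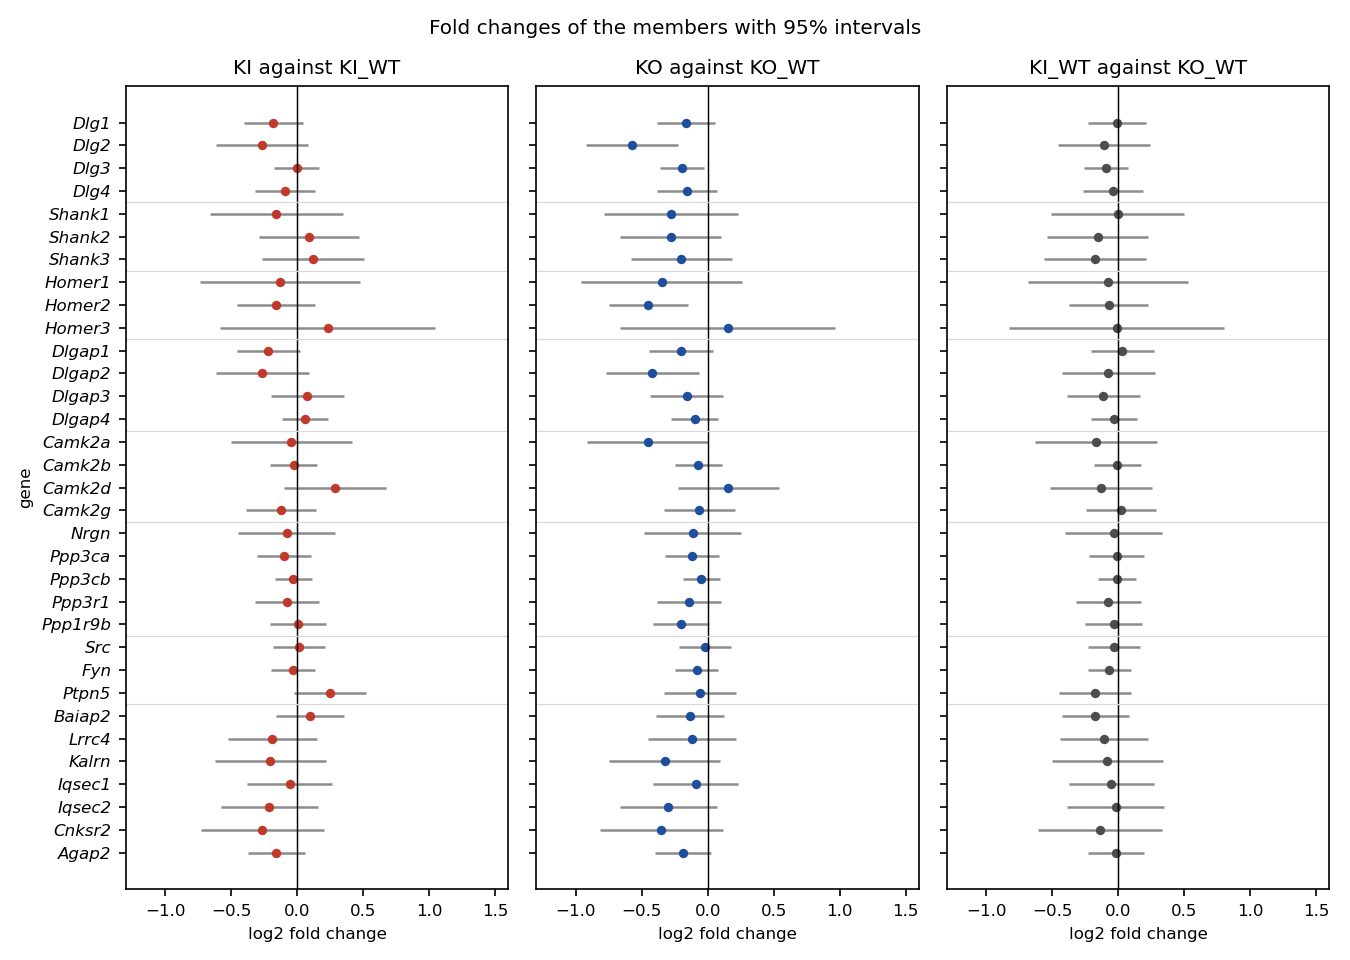
Log2 fold change of each gene with its 95% interval in KI against KI_WT, KO against KO_WT and KI_WT against KO_WT, from the edgeR fit, with lines between classes. In KO against KO_WT 31 of 33 lie below 0, and the intervals of Dlg2, Homer2, Dlgap2 and Dlg3 do not reach 0.

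The wild types of the lines were compared because both carry unaltered Grin1 alleles. The means of 31 of 33 genes were lower in KI_WT than in KO_WT, where 49.9% of all genes were, and the median was -0.07, beside 0.00 over all genes. By edgeR 0 of 33 were called (0% of all genes), with adjusted p-values of 0.9998, and 0 had an unadjusted p under 0.05 (1.96% of all genes). DESeq2 and limma voom also gave 0 of the 33 at either level. With a term for an animal number below 200, 6 of 33 had an unadjusted p under 0.05 (6.65% of all genes), and the median was -0.15. KO 1, KO_WT 2 and KO_WT 3 have animal numbers below 200, and the other libraries, all of KI and KI_WT among them, have higher ones. The term is thus estimated within the knockout line alone. There KO 1, the lowest library for the 33, is the only KO library below 200. KO_WT 1, the highest, is the only KO_WT library above it. The groups overlapped for all 33, and did not for 7.31% of all genes. This comparison shares the KO_WT libraries with KO against KO_WT, so a high KO_WT library lowers both. Without KO_WT 1 the count with lower means was 19 of 33 (median -0.02), and without KI_WT 3 it was 17 (median -0.00). All 8 oligodendrocyte markers (median -0.34), all 8 astrocyte markers (-0.14), all 9 striatal markers (-0.21) and 7 of 8 microglial markers (-0.13) were also lower in KI_WT. All 8 choroid plexus markers were higher (1.33), with sums of 18.1 to 1673 CPM in KI_WT and 22.2 to 901 in KO_WT. The oligodendrocyte sums were 6071 to 9429 CPM in KI_WT and 8983 to 11582 in KO_WT. With the terms for thalamus, choroid plexus and olfactory bulb markers 13 of 33 were lower (median 0.01), and the part of the other lists was not tested.

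The genes with the smallest p were Baiap2, Ptpn5, Dlg3, Shank3, Shank2 and Dlgap3. Baiap2, the actin regulator IRSp53, was at 196, 164 and 218 CPM in KI_WT and 232, 209 and 210 CPM in KO_WT (-0.17, SE 0.117). Ptpn5 was at 152, 151 and 179 CPM in KI_WT and 216, 175 and 154 CPM in KO_WT (-0.18, SE 0.125). Shank3 was at 215, 230 and 174 CPM in KI_WT and 256, 254 and 190 CPM in KO_WT (-0.18, SE 0.176), and Shank2 at 184, 166 and 129 CPM and 186, 179 and 168 CPM (-0.16, SE 0.175). In both Shank genes the third library of each group was its lowest, and those are the libraries high in olfactory bulb markers. Dlgap3 was at 222, 259 and 218 CPM in KI_WT and 310, 237 and 208 CPM in KO_WT (-0.11, SE 0.127), and 1 library, KO_WT 1, decided its sign. Without it the log2 fold change was 0.07. That of Ptpn5 was -0.03 without KO_WT 1, and that of Baiap2 was -0.07 without KI_WT 2. Those of Shank2 and Shank3 were -0.02 and -0.06 without KI_WT 3, and that of Dlg3 was -0.03 without KI_WT 2.

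KI against KO compares the altered alleles with no wild type between them, so allele and line cannot be told apart. The means of 24 of 33 genes were higher in KI (50.7% of all genes were), with a median log2 fold change of 0.04, beside 0.00 over all genes. By edgeR 0 of 33 were called (0.00573% of all genes, 1 gene, was), the smallest adjusted p was 0.919, and 0 had an unadjusted p under 0.05 (5.43% of all genes). DESeq2 and limma voom gave 0 at either level. Ppp1r9b was at 851, 799 and 794 CPM in KI, against 679, 726 and 761 CPM in KO (0.17, SE 0.098), and was the 1 gene of 33 whose groups did not overlap, beside 10.2% of all genes in either direction and 4.23% higher. Homer2 was at 106, 98.8 and 129 CPM in KI, against 86.8, 81.5 and 119 CPM in KO (0.22, SE 0.137), with overlap. Without KO 1 the median of the 33 was -0.00 with 17 lower.

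The difference between the effects (KI against KI_WT minus KO against KO_WT) was tested in the same fit, since a gene past a threshold in 1 line and not in the other is not thereby shown to differ. It was above 0 for 29 of 33 genes (49% of all genes), with a median of 0.09, beside -0.01 over all genes. None of the 33 was called by edgeR (0.00573% of all genes, 1 gene, was), the smallest adjusted p was 0.918, and 0 had an unadjusted p under 0.05 (5.26% of all genes), as with DESeq2 and limma voom. The smallest p-values were those of Ptpn5 (0.31, SE 0.177) and Dlg3 (0.19, SE 0.109). For Dlg2 the difference was 0.30 with an interval of -0.19 to 0.80, and for Homer2 0.29 with an interval of -0.13 to 0.71. The pattern over the 33 depended on the setting. With limma voom 16 of 33 were below 0 (median 0.01), and with the terms for regional markers 15 were (0.01). The median was 0.19 with the animal number term. It was 0.04 without KO 1, 0.05 without KI_WT 3 or without KO_WT 1, and 0.15 to 0.17 without any 1 of KI 2, KI_WT 1, KO 2, KO 3 and KO_WT 3. Without KO 3, 5 of the 33 had an unadjusted p under 0.05 (9.05% of all genes).

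A further 86 genes of the same compartment that are not in the list were followed as partners, 22 scaffolds, 18 regulators of small GTPases, 26 kinases, phosphatases and calmodulin genes, and 20 genes of actin and spines. All 86 were tested, and edgeR called 0 in each of the 5 comparisons. In KO against KO_WT 68 of 86 had lower means (48% of all genes did) and the median was -0.13. An unadjusted p under 0.05 was found for 13 (7.22% of all genes), and 13 did not overlap and were lower (6.4% of all genes). In KI against KI_WT 53 had lower means (51.3% of all genes), the median was -0.04 and 1 had an unadjusted p under 0.05 (6.96%). In KI_WT against KO_WT 67 had lower means (49.9%), the median was -0.06 and 0 had an unadjusted p under 0.05 (1.96%).

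Sipa1l1, a GTPase-activating protein for Rap in spines, had the smallest p of the partners in KO. It was at 303, 312 and 420 CPM in KO, against 562, 477 and 483 CPM in KO_WT, with no overlap (-0.56, SE 0.134, edgeR adjusted p = 0.678). Next to it stood Prkca, a protein kinase C, at 171, 157 and 225 CPM in KO and 241, 268 and 297 CPM in KO_WT (-0.54, SE 0.161). Lrrc7, the scaffold densin, was at 27.0, 40.6 and 44.1 CPM in KO and 55.03, 54.0 and 51.4 CPM in KO_WT (-0.52, SE 0.192). Wasf3 (-0.28), Akap9 (-0.41), Ppp1r9a (-0.30) and Synpo (-0.32) had smaller p-values than Lrrc7 and smaller changes. In the knock-in line Rac1, the GTPase that acts on actin in spines, was at 326, 330 and 306 CPM in KI, against 285, 289 and 284 CPM in KI_WT (0.17, SE 0.0646, edgeR adjusted p = 0.705), with no overlap. The differences between the effects were 0.43 (SE 0.188) for Sipa1l1 and 0.39 (SE 0.14) for Camkv, a CaM kinase-like protein, with an adjusted edgeR p of 0.918 for each.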

How the data were processed

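Poly(A) RNA-seq of cortex was deposited as counts and as RPKM. Per the submitters' processing notes the authors used bcl2fastq 2.17, STAR 2.5.0c and GRCm38, and Cufflinks 2.2.1 in a role not named; the read counter, annotation and strand setting are not given in the sources used here. The deposited table of counts holds whole numbers for 41388 genes. The authors' deposited RPKM values equal the counts divided by gene length and library total, within 0.0534% over 8292 genes. Replicate numbers follow the order of the records and pair nothing, and 0 columns were left unassigned.

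Counts were fitted with edgeR 4.0.16 (R 4.3.3): filterByExpr, TMM, 1 mean per group over all 12 libraries (biological coefficient of variation 15.7%, 8 residual degrees of freedom), quasi-likelihood tests, and Benjamini-Hochberg adjustment over 17441 genes in each of 5 comparisons, with a threshold of 0.05. The script was tested on simulated data. The members, lists and tests were chosen with earlier results of these data known. Genes were named by a rule, which takes Grin1, the 6 members of smallest p in KO against KO_WT, KI against KI_WT and KI_WT against KO_WT, the 2 of smallest p in the other comparisons, the most abundant of each class, and up to 2 partners of smallest p per list and comparison. The other members with a value were added after their values were seen, so that all classes are covered. DESeq2 1.42.0, limma 3.58.1 and other alternatives are given in the closing section. Coordinates and overlaps come from GENCODE, to which 40254 IDs matched, and promoters from RefSeq.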

Additional observations from a re-analysis of the deposited data

How the results depend on the processing

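Under every alternative that was run, 0 of the 33 genes were called in any of the 5 comparisons. The alternatives were other size factors, count filters and tests, only the compared groups, a gene length offset, terms for regional markers, Y-linked expression, animal number and (added after seeing the data) excitatory neuron markers, and leaving out each library or (also added) KI 2, KI_WT 3, KO 1 and KO_WT 3 together. In KO against KO_WT the median of the 33 lay between -0.20 and -0.11 when single libraries were left out, and the log2 fold change of Dlg2 between -0.76 and -0.42. The median was -0.23 with the term for an animal number below 200, which is estimated within the knockout line alone. That term gave 15 of 33 an unadjusted p under 0.05 (11% of all genes). Without the 4 libraries the median was -0.16 with 30 lower. The excitatory marker term gave 11 an unadjusted p under 0.05 (9.61% of all genes), the regional terms 2 (3.73%) and the Y-linked term 2 (2.95%). With the Y-linked term the median was -0.15 with 30 lower. The count of members with a lower mean in KI_WT against KO_WT was 31. It was 18 with limma voom, which also weights libraries by quality, and 13 with the regional marker terms. It lay between 17 and 31 when single libraries were left out. The sign turned for Dlg1 in KI against KI_WT with the regional terms (0.0157) and for Dlgap3 in KI_WT against KO_WT without KO_WT 1 (0.070, in a range of -0.22 to 0.070 over single libraries left out). The median of the difference between the effects lay between 0.04 and 0.17, and that of KI against KO between -0.00 and 0.10, when single libraries were left out. Over all genes the edgeR fit of the report called at most 1 gene in a comparison. Alternatives called more in places, such as 6 in KO against KO_WT without KO 3, 3 there without the 4 libraries, and 2 in KI against KO with no count filter. DESeq2 called 4 for KI and 8 for KO against their wild types, 14 between KI and KO, 1 between the wild types and 5 for the difference. The causes were not tested. With 3 libraries a group, the median SE of the log2 fold changes was 0.127, which limits what a difference of the size seen here can show. No paired analysis was possible because the replicate numbers were given in record order and the labels pair no animals.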
